A study of Mus musculus with 131 samples.

Results

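In mouse hepatocytes, 131339 tiles of 200 bp lost DNA methylation between newborn and adult wild-type (WT) cells. At 5886 of them, cells without Tet2 and Tet3 were also near the adult WT level or below it. They were chosen from whole-genome bisulfite sequencing (WGBS) alone, among 8049849 autosomal tiles with a value in all 3 libraries. Newborn hepatocytes had to be at least 35 percentage points above adult WT, and the Tet2/Tet3 double knockout (DKO) at most 10 points above adult WT. These tiles, 4.48% of the lost tiles, are called shared-loss tiles here, and the remaining 125453 are called other lost tiles. Each of the 3 WGBS values came from 1 library, so the choice carries no replicate error, and the coverage of a tile is unknown.

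TET enzymes oxidize 5-methylcytosine to 5-hydroxymethylcytosine (5hmC) and further forms, which DNA repair or cell division can replace with unmethylated cytosine. Methylation can also be lost without them, when copying of the mark during replication is incomplete. In liver, loss after birth is known mostly from enhancers, which carry the histone marks H3K4me1 and, when active, H3K27ac. Shared-loss tiles would be the place to look for a loss that does not need TET2 or TET3. This holds provided that the values below newborn in both adult libraries are borne out by other measurements.

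All mice were of the C57Bl background. The newborn WGBS library was from 1 week, and the adult WT and DKO libraries were from 15 weeks. The histone mark libraries of WT and DKO were also from 15 weeks. Labels give an injection at 1 day for the DKO libraries of both assays and no injection for the WT ones. In WGBS and histone marks, adult WT and DKO thus differ in injection as well as genotype. DKO mice carry floxed Tet2 and Tet3 and received an AAV8 virus with Cre under the hepatocyte-specific Tbg promoter, at 1 day (also the WGBS mouse) or at 3 weeks of age, and were examined at 15 weeks. Injected controls are labelled WT_CRE for the same 2 times. Mice without the insulin receptor (InsR KO) were injected in the same way after birth. Hepatocytes were purified on Percoll and freed of CD45-positive cells, except for the cultures. These are newborn liver cells kept in vitro for several weeks without sorting. The ATAC-Seq and HNF6 ChIP-Seq samples are labelled liver, while the paper describes the ATAC-Seq as done on hepatocytes of 15 weeks. Reduced representation bisulfite sequencing (RRBS), which reads CpG-containing restriction fragments, was available for 3 controls and 2 DKO mice of each injection time, 2 WT mice of 3 weeks, 2 InsR KO mice, 2 cultures, and 1 sample each of fat (25 weeks) and neutrophils (36 weeks). In RNA-Seq, Tet2 was at 3.35 FPKM ± 0.650 (SD, n = 3) after deletion at 1 day and 1.55 ± 0.626 (SD, n = 3) in their controls (log2 change 0.79, limma, adjusted p = 0.0172), and Tet3 at 2.39 ± 0.566 (SD, n = 3) and 2.11 ± 0.436 (SD, n = 3). FPKM, a value per length and per depth, covers whole genes and does not read the floxed part alone, so it is no check of the deletion.

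Some shared-loss tiles are shown first, because their sequence bears on what follows. Adjacent shared-loss tiles were rare and formed 8 pairs. For 3 of the pairs in which adult WT lay farthest below newborn, the tile with the larger fall is given, followed by the 3 tiles that could be read by RRBS in 10 mice and held at least 3 CpG, and by the tile at Hnf4a, a nuclear receptor that maintains hepatocyte identity. CpG sites are in capitals and coordinates are those of mm9, plus strand.
Intergenic, near Mtmr3, chr11:4497601-4497800: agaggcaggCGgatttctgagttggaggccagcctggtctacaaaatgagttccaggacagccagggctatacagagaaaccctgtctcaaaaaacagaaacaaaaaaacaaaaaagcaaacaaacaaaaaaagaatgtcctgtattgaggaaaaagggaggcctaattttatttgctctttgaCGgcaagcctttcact
Intergenic, chr9:113078201-113078400: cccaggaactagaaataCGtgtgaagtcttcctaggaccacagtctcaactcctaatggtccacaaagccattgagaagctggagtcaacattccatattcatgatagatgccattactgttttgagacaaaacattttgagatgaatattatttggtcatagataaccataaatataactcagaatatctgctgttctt
Cxcl1 exon, chr5:91320401-91320600: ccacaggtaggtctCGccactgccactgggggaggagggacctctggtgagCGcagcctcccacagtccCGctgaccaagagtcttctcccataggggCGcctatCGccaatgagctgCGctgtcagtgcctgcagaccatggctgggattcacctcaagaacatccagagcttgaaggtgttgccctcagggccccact
Fip1l1 intron, chr5:74968801-74969000: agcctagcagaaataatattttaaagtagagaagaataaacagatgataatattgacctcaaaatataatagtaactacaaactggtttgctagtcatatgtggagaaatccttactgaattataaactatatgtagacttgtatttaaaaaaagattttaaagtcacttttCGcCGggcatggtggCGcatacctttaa
Intergenic, chr11:73076601-73076800: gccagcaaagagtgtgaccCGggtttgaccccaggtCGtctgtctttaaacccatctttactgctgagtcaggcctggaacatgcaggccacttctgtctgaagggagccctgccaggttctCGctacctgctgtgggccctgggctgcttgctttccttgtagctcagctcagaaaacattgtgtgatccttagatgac
Intergenic, chr4:72488201-72488400: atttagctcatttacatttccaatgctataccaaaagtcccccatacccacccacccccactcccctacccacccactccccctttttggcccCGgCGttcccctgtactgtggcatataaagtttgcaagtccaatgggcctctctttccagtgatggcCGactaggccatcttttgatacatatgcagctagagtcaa
Beyond the end of Hnf4a, chr2:163398801-163399000: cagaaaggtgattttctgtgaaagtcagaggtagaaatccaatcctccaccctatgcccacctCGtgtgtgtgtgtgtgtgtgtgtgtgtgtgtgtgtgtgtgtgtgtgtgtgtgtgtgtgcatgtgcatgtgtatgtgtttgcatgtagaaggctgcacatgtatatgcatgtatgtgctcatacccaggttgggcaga
The Hnf4a tile contains a long run of TG units. The other tiles hold 1 to 3 CpG, except for the Cxcl1 tile with 6.

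In the WGBS values that chose them, shared-loss tiles had means of 81.8% in newborn, 42.4% in adult WT and 44.6% in DKO hepatocytes. Other lost tiles had 76.9%, 25.5% and 74.0%. Shared-loss tiles lay close to the limit of the rule: 66.1% of them fell by less than 40 points, against 25.9% of the other lost tiles. Only 196, or 3.33%, fell by 50 points or more, against 43.3%. Their adult level was intermediate, with 80.6% of them above 30% methylation and 6.66% below 20%. The DKO value was below adult WT at 27.9% of them and more than 5 points above it at 42.8%. As a share of all lost tiles, they fell from 10.7% at losses of 35 to 40 points to 0.0541% at losses of 60 points or more. With the adult level they rose from 0.284% under 10% methylation to 11.6% at 50% and above. At the limit for DKO, the 3 tiles just inside had DKO values of 75%, 50% and 20% against adult values of 65%, 40% and 10%. The 3 just outside had DKO values of 53.5%, 55.2% and 55.2% against adult values of 43.5%, 45.2% and 45.2%. At the limit for loss, the 3 tiles just inside fell by exactly 35 points and the 3 just outside by 34.99 points, from 82.6% to 47.6%.

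**Figure D1:**
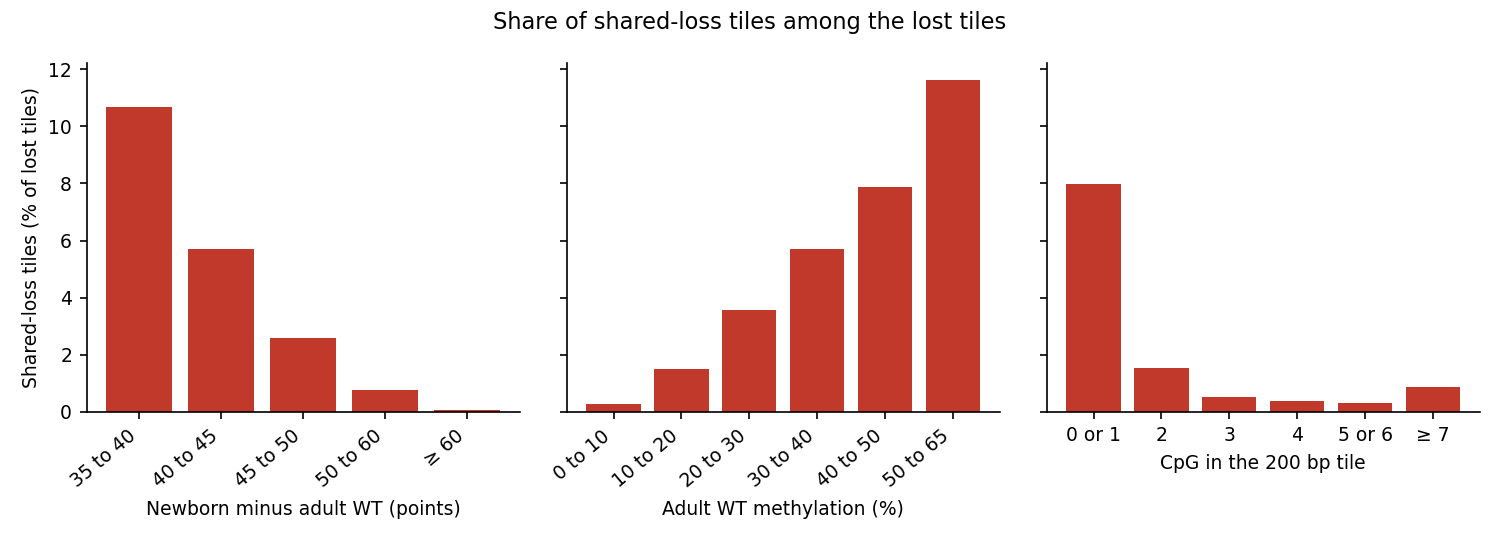
Share of shared-loss tiles among the lost tiles (%, bars) by the fall from newborn to adult WT (points), by the adult WT level (%) and by the number of CpG in the tile. The share was highest at falls of 35 to 40 points (10.7%), at adult levels of 50% and above (11.6%) and in tiles with up to 1 CpG (8.00%).

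The same size of difference was also counted for each library in turn, with the remaining pair within 10 points of each other and the library at least 35 points from the adult WT value (for adult WT, from newborn). Newborn stood alone on the high side at 5521 tiles, which are shared-loss tiles, and on the low side at 8039. DKO stood alone below at 7005 tiles and above at 14077, and adult WT below at 67740 and above at 2424. The tiles where newborn was alone on the high side were thus fewer than those where it was alone on the low side.

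Sequence composition set shared-loss tiles apart from the other lost tiles. Up to 1 CpG was found in 89.4% of them, against 48.2% of other lost tiles and 39.9% of all tiles with 3 values. The share of lost tiles that were shared-loss tiles was 8.00% with up to 1 CpG, 1.52% with 2 CpG 0.303% with 5 or 6 and 0.863% with 7 or more. Mean GC content was 39.6%, against 44.3% and 43.6%, and 12 tiles met the criteria of a CpG island. Most of the set thus consists of tiles whose value rests on at most 1 CpG within the tile.

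Many shared-loss tiles also had sequence that occurs elsewhere in the genome. The central 32 bases of each tile were matched exactly against both strands of the reference, with overlapping matches counted. They occurred at least 2 times for 1231, or 20.9%, of shared-loss tiles (95% Wilson interval 19.9 to 21.97), for 7.90% of other lost tiles and for 13.3% of a sample of 150000 tiles with 3 values. They occurred 1000 times or more for 7.34%, 1.95% and 3.51%. Among tiles with 2 or more CpG, the first of these shares was 44.6% (40.7 to 48.5) of 626 shared-loss tiles, 6.62% of other lost tiles and 13.8% of the sample. These intervals cover counting error over tiles only, and tiles are not replicates of a condition.

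Runs of 6 or more dinucleotide units were also more common. CA or TG runs lay in 4.62% of shared-loss tiles, 2.99% of other lost tiles and 2.77% of all tiles. GA or TC runs lay in 2.57%, 1.25% and 0.962%, and TA runs in 0.883%, 0.220% and 0.325%. The central bases of the Hnf4a tile shown above, a run of TG units, matched at 1000997 positions.

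Binding motifs of liver transcription factors were searched as fixed strings on both strands, where N is any base. The HNF4A string CAAAGTCCA was in 0.357% of shared-loss tiles (0.233 to 0.545), 0.688% of other lost tiles and 0.259% of all tiles of the same length. The NF1 string TTGGCA was in 9.80%, 18.6% and 10.0%, and the PPAR-RXR core AGGNCAAAG in 1.00%, 2.01% and 1.18%. For these 3 strings, the shared-loss tiles were closer to all tiles than to the other lost tiles. The HNF6 string ATTGATT was in 4.26%, 5.35% and 2.99%, the CEBP string TTGCNNAA in 10.4%, 11.8% and 9.07%, and the STAT5 string TTCNNNGAA in 9.23%, 8.28% and 7.23%. The FOXA string TGTTTAC was in 3.24%, 3.58% and 2.97%, the HNF1 string TTAATNATT in 1.70%, 1.85% and 1.41%, and the CTCF core AGGGGGCGC in 1 shared-loss tile. A match is a string in a tile and not a binding site.

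The DNA around most shared-loss tiles lost little methylation. Of 5878 separate runs of shared-loss tiles, 5870 were single tiles and none was longer than 2. Of 100220 runs of other lost tiles 82.5% were single, and the longest had 19 tiles. With 5886 shared-loss tiles against 125453 other lost tiles, mostly single runs are to be expected of the rarer set. A shared-loss tile beside an other lost tile also counts as single. The run lengths therefore do not show how isolated the loss was. In the 4725 shared-loss tiles with a value 200 bp away, the neighbours fell by a mean of 3.47 points from newborn to adult, close to 2.78 points around a sample of all tiles. Neighbours of other lost tiles fell by 21.1 points. A neighbouring fall of at least 20 points was found at 11.8% of shared-loss tiles, 53.1% of other lost tiles and 9.14% of the sample. In DKO, the neighbours differed from adult WT by -0.781 points at shared-loss tiles and by 21.98 points at other lost tiles.

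**Figure D2:**
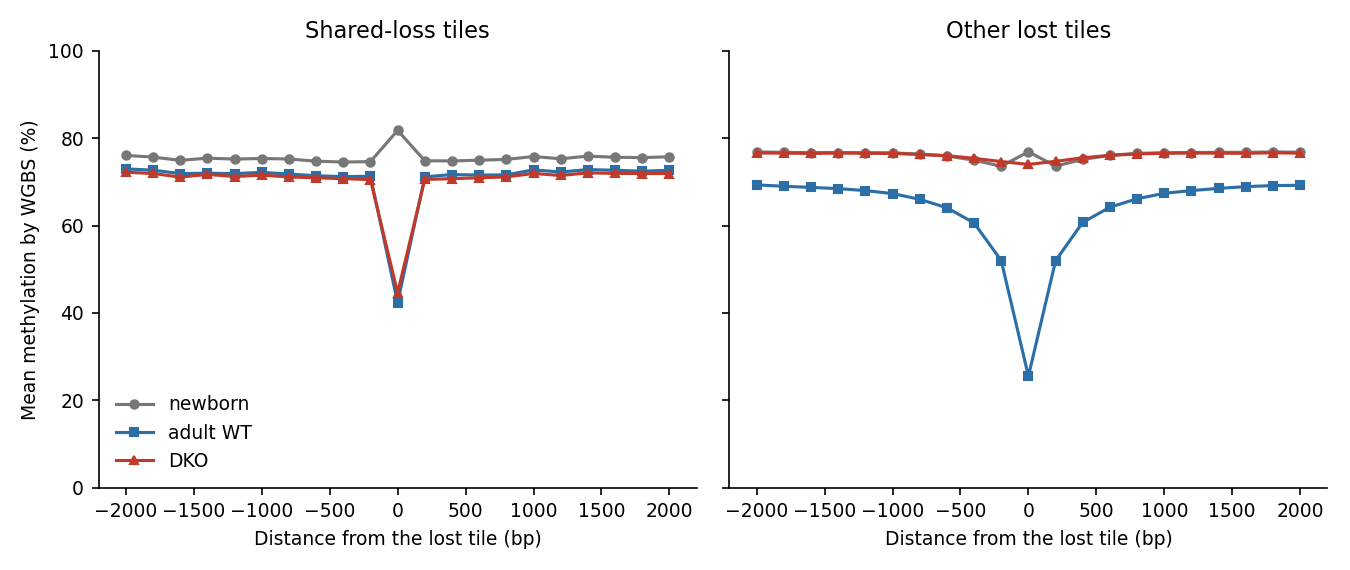
Mean WGBS methylation (%) of newborn, adult WT and DKO hepatocytes by distance from the lost tile (bp), for shared-loss tiles and other lost tiles. At shared-loss tiles the adult and DKO values dip in 1 tile only, to 42.4% and 44.6%, while 200 bp away adult WT is at 71.1% or above. Around other lost tiles adult WT stays low, at 52.0%, and DKO does not.

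Tiles of like kind differed as well. With up to 1 CpG and a loss under 40 points, 11.0% of shared-loss tiles and 23.3% of other lost tiles had a neighbour that fell by at least 20 points. In the 74 shared-loss tiles with 4 or more CpG, this share was 26.2% of those with a neighbour, against 73.7% for other lost tiles and 7.91% for all tiles of that class. Neighbours fell there by 8.02, 30.0 and 2.42 points. One such tile, with 24 CpG between genes on chromosome 14 (chr14:92489001-92489200), was at 82.7% in newborn, 42.9% in adult WT and 42.7% in DKO hepatocytes. Its neighbours were at 93.7%, 69.8% and 77.5%. Over 100 kb, the surroundings of shared-loss tiles were somewhat lower than those of other lost tiles, at 73.7% against 76.6% in adult WT.

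Shared-loss tiles lay mostly between genes. Intergenic sequence held 71.4% of them (70.2 to 72.5), against 38.5% of other lost tiles and 52.5% of all tiles. Gene bodies held 26.9%, 57.3% and 44.0%, and promoters, from 1 kb before to 100 bp after a start, held 1.66%, 4.22% and 3.48%. The median distance to the nearest annotated transcript start, coding or not, was 54.2 kb, against 14.0 and 25.2 kb. Across chromosomes, their share of lost tiles ranged from 2.11% on chromosome 19 to 6.31% on chromosome 14.

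Histone marks of enhancers were scarce at the shared-loss tiles. In adult WT hepatocytes, H3K4me1 peaks covered 3.40% of them (2.96 to 3.89), against 57.0% of other lost tiles and 7.65% of all tiles. H3K27ac peaks covered 1.85%, 35.6% and 4.43%. In DKO hepatocytes the shares were similar, 3.47% and 2.09% of shared-loss tiles. Each of these is from 1 library, without replicates. The shares of shared-loss tiles were thus below those of all tiles, and those of other lost tiles far above them. Among tiles with up to 1 CpG, H3K4me1 covered 2.98% against 42.3%, and among those that also had an adult level of at least 40%, 2.69% against 21.99%. In tiles of 1 copy, H3K4me1 covered 3.802% of shared-loss tiles and 59.4% of other lost tiles. These strata, and all further divisions by CpG number, copies and repeats, were chosen after seeing the data.

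**Figure D3:**
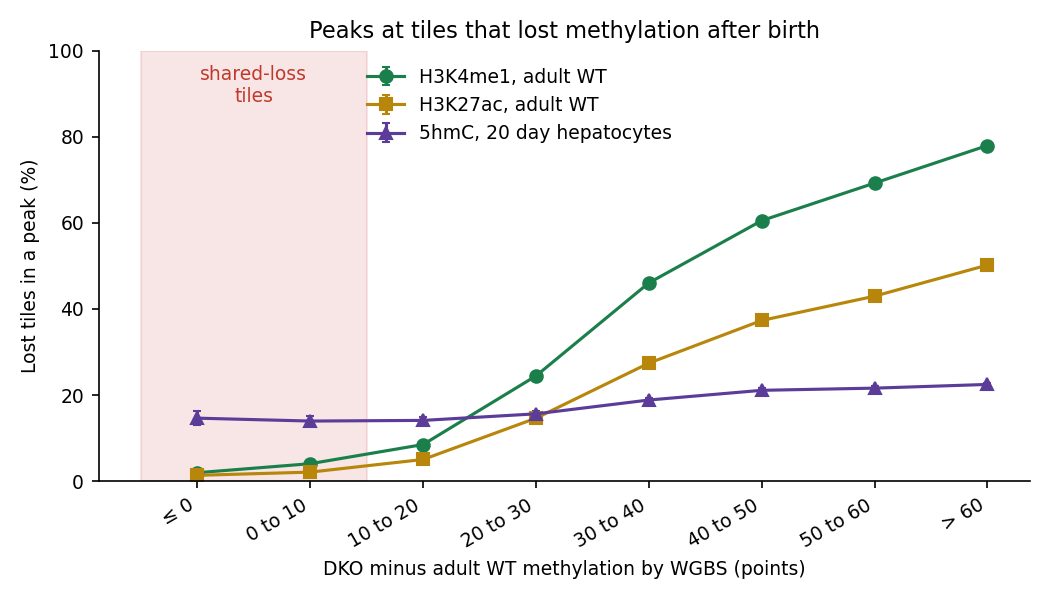
Share of lost tiles (%) in a peak of H3K4me1 or H3K27ac of adult WT hepatocytes or of 5hmC of 20 day hepatocytes, by DKO minus adult WT methylation (points). Bars are 95% Wilson intervals and the shaded bins are the shared-loss tiles. The H3K4me1 share rises from 1.95% in the lowest bin to 78.0% in the highest, and the 5hmC share from 14.6% to 22.5%.

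The limit of 10 points did not fall at a break in these values. The H3K4me1 share was 4.04% where DKO was 0 to 10 points above adult WT, 8.49% at 10 to 20 points and 24.4% at 20 to 30 points. The lost tiles just outside the limit were therefore closer to the shared-loss tiles than to the bulk of the lost tiles.

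A small group of shared-loss tiles did carry marks. In at least 1 of the 4 histone libraries, 265 of them lay in a peak. Their neighbours fell by 14.0 points from newborn to adult and were 15.6 points higher in DKO than in adult WT. At the 5621 tiles without a mark, neighbours fell by 2.91 points and were 1.66 points lower in DKO. Neighbours of marked other lost tiles fell by 27.6 points and were 30.2 points higher in DKO. A neighbouring fall of at least 20 points was found at 39.2% of marked shared-loss tiles, 10.3% of unmarked ones and 67.6% of marked other lost tiles. The marked tiles thus lay between the unmarked ones and the other lost tiles. The Hnf4a tile was among them. It was at 73.7% in newborn, 27.3% in adult WT and 36.4% in DKO hepatocytes, and lay in H3K4me1 and H3K27ac peaks of both genotypes and in a 5hmC peak. Its neighbours were at 27.1% and 39.8% in adult WT and at 83.3% and 81.3% in DKO hepatocytes.

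5hmC was measured in 1 library from 20 day hepatocytes, without an input. Its peaks covered 14.2% of shared-loss tiles (13.3 to 15.1), 20.1% of other lost tiles and 9.56% of all tiles. Among tiles with up to 1 CpG the shares were 13.8%, 14.9% and 10.0%. Peaks were frequent at CA or TG runs whether or not methylation was lost. They covered 39.3% of shared-loss tiles, 52.4% of other lost tiles and 36.4% of all tiles with such a run. Without such a run, they covered 12.9%, 19.1% and 8.80%. In tiles with such a run, the interval of the shared-loss tiles (33.7 to 45.3) included the share of all tiles, and without a run it lay above that share (12.1 to 13.8). In both classes the share was below that of other lost tiles. With only the better-scoring peaks, the shares over all shared-loss tiles and all other lost tiles were both 7.70%.

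Peaks of open chromatin and of HNF6, a transcription factor of hepatocytes, were rare in shared-loss tiles and in all tiles. ATAC-Seq peaks covered 0.170% and 0.476% of them in the 2 WT libraries and 0.442% and 0.374% in the 2 DKO libraries. The difference of -0.0849 points, WT minus DKO, lay within the spread of the libraries (p = 1, exact permutation, two-sided). At other lost tiles the shares were 5.28% and 7.17% in WT and 4.07% and 5.09% in DKO, and at all tiles they ranged from 0.873% to 1.16% over the 4 libraries. HNF6 peaks covered 0.0170% and 0.0680% of shared-loss tiles in WT and 0.102% and 0.731% in DKO, where all tiles had 0.0846% and 0.164% in WT and 0.179% and 0.672% in DKO. The difference of WT minus DKO was -0.374 points (p = 0.333 by exact permutation, two-sided, the lowest value for 2 libraries against 2). The second DKO library held 34665 peaks, against 4387 to 9355 in the others, and without it the difference was -0.0595 points.

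RRBS was not used by the rule and measured the same tiles in several mice. RRBS tiles are rare where CpG are few, and 68 shared-loss tiles (1.16%) held 72 of them, against 6.89% of other lost tiles. In each mouse injected as control or DKO, 20 to 32 of these had a value. Controls injected at 1 day were at 56.0%, 61.4% and 66.0%, and those injected at 3 weeks at 65.9%, 64.2% and 67.2%. The mean of the 6 controls was 63.5% ± 4.17 (SD, n = 6), which is 20.1 points above the adult WGBS value of the same tiles. These controls were injected, and the adult WT mouse of WGBS is not labelled as injected. At other lost tiles the controls had 21.97% ± 1.46 (SD, n = 6), within 0.671 points of adult WGBS. Against newborn WGBS, since no RRBS of uncultured newborn cells was used, RRBS of controls thus gave much of the loss at other lost tiles. It gave a smaller one at the shared-loss tiles it could read. Of those 72 RRBS tiles, 29 lay in tiles whose central 32 bases have 2 or more copies. There, controls injected at 1 day were at 85.5% against 46.8% in adult WGBS. At tiles of 1 copy, they were at 48.4% against 41.2%.

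DKO mice injected at 1 day were at 69.5% and 71.3% over the shared-loss tiles, above all 3 of their controls. The difference of 9.26 points reached the smallest p of this design (p = 0.2 by exact permutation of 2 mice against 3, two-sided), which cannot pass 0.05. It was 3.58 points with the median over tiles (exact permutation, p = 0.4), 2.44 points over the 4 RRBS tiles with a value in every mouse (exact permutation, p = 0.8) and 19.5 points with a limit of 0 points on DKO minus adult WT (exact permutation, p = 0.2). At other lost tiles the mean was 76.4% ± 2.12 (SD, n = 2) in these mice, compared with 20.8% ± 0.591 (SD, n = 3) in the controls. The effect of the deletion was 46.3 points larger at other lost tiles than at shared-loss tiles, with the same smallest p of 0.2 in the exact permutation test. Over 6 such tests, the adjusted p was 0.24 for these comparisons.

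Tiles of 1 copy and of several copies, by their central 32 bases alone, differed in RRBS. At shared-loss tiles whose central 32 bases have 1 copy, controls injected at 1 day were at 42.1%, 46.8% and 56.4%, over 15 to 20 RRBS tiles a mouse. DKO mice injected at 1 day were at 64.4% and 69.0%. The groups did not overlap, and the difference was 18.3 points (p = 0.2 by exact permutation, two-sided, again the lowest possible). Over the 10 such tiles with a value in all 5 mice it was 21.0 points. At tiles of 2 or more copies, with 8 to 12 RRBS tiles a mouse, the same controls were at 83.9%, 88.8% and 83.9% and the DKO mice at 79.2% and 74.9%, a difference of -8.53 points in the opposite direction. Adult WGBS of these tiles was 41.2% for 1 copy and 46.8% for several copies. By RRBS, shared-loss tiles of 1 copy were thus lower in controls than in DKO mice, which goes against the WGBS values that chose them, and tiles of several copies were high in both. Of the other lost tiles of 1 copy, controls had 19.6% and DKO mice 76.4%.

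**Figure D4:**
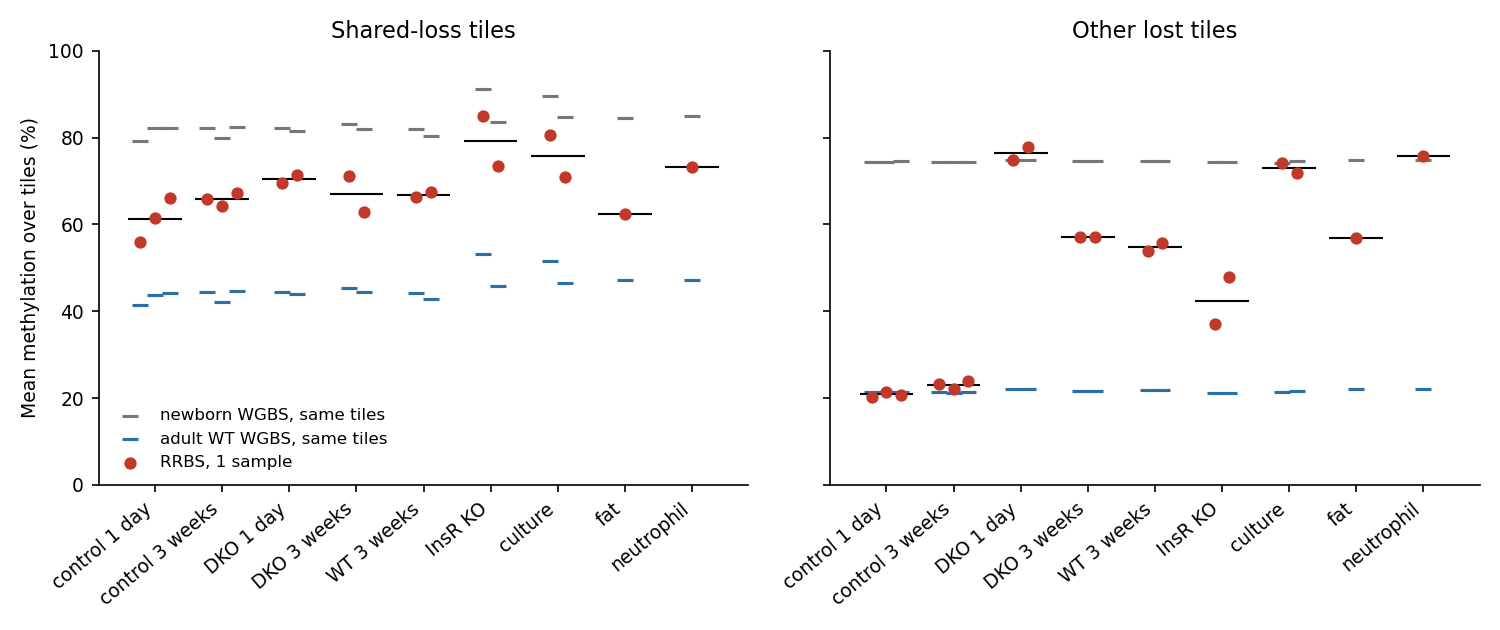
RRBS methylation (%, mean over tiles; red points are samples, black lines group means) at shared-loss tiles and other lost tiles, with WGBS of newborn (grey dashes) and adult WT (blue dashes) over the same tiles. At shared-loss tiles the 6 controls lie between 56.0% and 67.2%, above adult WGBS, and at other lost tiles between 20.3% and 24.04%, beside it.

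Tile by tile, 27 RRBS tiles in shared-loss tiles had a value in at least 3 controls. Their median control value was 75.8%, and 17 of them were more than 10 points above adult WGBS. Controls were at least 35 points below newborn WGBS at 10 of them (37.0%) and within 10 points of it at another 10. Of 6735 such tiles in other lost tiles, 80.8% were at least 35 points below newborn WGBS and 5.14% within 10 points. Part of the shared-loss tiles was therefore low in RRBS of controls and part was not.

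The 3 tiles shown above that could be read in all 10 mice included both kinds. The central 32 bases of all 3 have 1 copy. At none of them did all controls injected at 1 day lie below both DKO mice injected at 1 day. At the Fip1l1 tile, WGBS was 89.9% in newborn, 49.6% in adult WT and 50.4% in DKO hepatocytes. RRBS of its second 100 bases was 84.0%, 90.0% and 100% in controls injected at 1 day and 95.3% and 100% in DKO mice. At chr4:72488201-72488400, which was at 92.3%, 57.1% and 58.8% in WGBS, RRBS of the first 100 bases was 93.2%, 88.7% and 97.8% in these controls and 94.9% and 92.4% in DKO mice. The second 100 bases of that tile ranged from 52.2% to 89.4% over the 6 controls and were at 65.7% and 94.3% in these DKO mice. The Fip1l1 tile was thus high by RRBS in each mouse, and the first part of the chromosome 4 tile as well. In WGBS the tile after the Fip1l1 tile also fell, from 75.5% to 46.1%, with DKO at 43.2%. At chr11:73076601-73076800, which was at 72.3%, 36.5% and 37.8% in WGBS, RRBS was 30.0%, 28.0% and 28.9% in these controls and 17.7% and 17.5% in DKO mice. Controls injected at 3 weeks were at 7.14%, 64.5% and 17.9%, and WT mice of 3 weeks at 18.6% and 43.4%. This tile was low in DKO mice by both assays, while 1 of the 6 controls was high. Fat was at 1.92%, neutrophils at 18.9% and the cultures at 50.0% and 13.3% there, and its neighbours stayed at 79.8% and 85.2% in adult WGBS.

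Over all shared-loss tiles, the other RRBS groups lay at or above the controls. DKO mice injected at 3 weeks were at 71.2% and 62.9%, on both sides of their controls, and 1.29 points higher on average (p = 0.8, exact permutation, two-sided). WT mice of 3 weeks were at 66.3% and 67.4%, 3.37 points above the mean of the 6 controls (p = 0.143, exact permutation, two-sided). At other lost tiles these mice had 54.8% ± 1.25 (SD, n = 2). InsR KO mice, with only 9 and 12 tiles, were at 85.1% and 73.4%, and the cultures, with 9 and 21 tiles, at 80.6% and 71.0%. Both lay above their controls, by 18.1 points (exact permutation test, p = 0.2) and 12.3 points (exact permutation test, p = 0.0714), each the smallest p possible. These means are over different tiles in each mouse. Relative to adult WGBS of the same tiles, InsR KO mice were 29.8 points higher and their controls 18.0, and cultures 26.7 points higher and the controls 20.1. Over the 4 RRBS tiles with a value in every mouse, the differences were -3.31 points for InsR KO (exact permutation, p = 0.6) and 2.18 points for cultures (exact permutation, p = 0.5). Fat was at 62.4% and neutrophils at 73.2%, from 1 sample each. At tiles of 1 copy, DKO mice injected at 3 weeks were 10.2 points and WT mice of 3 weeks 9.52 points above the controls. InsR KO mice were 29.1 points and cultures 22.2 points above them, and no group overlapped with its controls. At tiles of several copies, all of these differences were below 0. The 1 copy means are again over different tiles, 5 and 7 in InsR KO mice, 7 and 13 in cultures and 13 to 20 in controls. Adult WGBS of the tiles read was 50.2% for InsR KO mice and 49.05% for cultures. For controls injected at 1 day and 3 weeks it was 41.2% and 41.3%. These comparisons share their control mice.

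The 3 pairs shown differed in context. The pair near Mtmr3 (chr11:4497401-4497800) was at 84.4% and 79.7% in newborn, 44.6% and 25.4% in adult WT, and 50.6% and 31.6% in DKO hepatocytes, and lay in no peak. The pair between genes on chromosome 9 (chr9:113078001-113078400), with 1 CpG in each tile, fell from 56.2% and 54.8% to 16.0% and 14.3%, with DKO at 20.0% and 7.69%, also in no peak. The pair in the chemokine gene Cxcl1 (chr5:91320401-91320800) differed from these, as both tiles lay in H3K27ac peaks of WT and DKO hepatocytes. The first tile also lay in an ATAC-Seq peak, in 1 of the 2 WT libraries only. The tiles of this pair were at 50.5% and 58.0% in newborn, 7.58% and 22.9% in adult WT and 16.3% and 17.2% in DKO hepatocytes. The neighbour after the pair was at 57.0%, 15.5% and 35.8%. Cxcl1 was at 51.6, 34.5 and 64.7 FPKM in controls injected at 1 day and at 36.4, 71.0 and 91.1 FPKM in DKO mice, which overlap (limma, adjusted p = 0.637).

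Genes that held shared-loss tiles were long and mostly silent in hepatocytes. There were 1248 such genes, of which 998 held a single tile and 315 no other lost tile. Their median length was 95.8 kb, against 25.9 kb for the 12456 genes with other lost tiles only. The 315 genes with no other lost tile were shorter, with a median of 15.3 kb. A longer gene holds more tiles that can be chosen, and these lengths make no allowance for that. By number of shared-loss tiles, with no allowance for gene length, the first genes were Csmd3 with 14, the neurexin Nrxn3 with 12, the netrin-G ligand Lrrc4c with 11, and Opcml, Pcdh15 and the receptor phosphatase Ptprd with 9 each. Cntn4, the netrin receptor Dcc and Sntg1 had 8 each. These genes span 938 to 2271 kb. All of them also held other lost tiles, from 23 in Dcc to 112 in Ptprd, and their share of shared-loss tiles was highest in Csmd3, at 35.9%. Of genes with at least 10 lost tiles, it was highest in the calcium channel gene Cacna2d1, at 6 of 13 tiles or 46.2%, followed by Mctp1 (45.5%), Lrrc7 (42.9%), and Epha5 and Ndst4 (40% each). A830018L16Rik (37.5%) and B930007M17Rik, Cpne4 and Spock3 (36.4% each) came next.

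Except for Ptprd, these genes were near 0 in every library where they were listed. Csmd3 was at 0 FPKM in all 15 week libraries and Lrrc4c at most at 0.138. Ptprd was at 17.1, 19.3 and 18.9 FPKM in 15 week WT mice and at 15.4, 8.29 and 16.5 FPKM at 3 weeks, a difference of 0.48 ± 0.22 (SE) on the log2(FPKM + 1) scale that did not pass the test (limma, adjusted p = 0.108). Of the 1018 genes with shared-loss tiles in the expression table, the median in 15 week WT mice was 0.00698 FPKM, against 2.89 FPKM for genes with other lost tiles only and 0.00817 FPKM for genes with no lost tile. Only 278 of them, or 27.3%, reached a mean of 1 FPKM in a condition and were tested, against 68.4% and 32.7%.

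Of 6 gene lists of liver biology, 3 held shared-loss tiles. Genes of hepatocyte maturation, 33 of them in the annotation, had 4 shared-loss tiles among 1091 lost tiles, or 0.367%, compared with 2.09% over all genes. Per 1000 measured tiles, these genes had 0.836 shared-loss tiles and 228 lost tiles, against 0.463 and 22.2 over all genes. Those 4 lay in Hnf4a and in Ghr, the growth hormone receptor, which held 3. Male-biased liver genes had 0 of 233 lost tiles and female-biased ones 0 of 198. Fetal liver genes had 1 of 14, in Igf2, cell cycle genes 0 of 9, and genes of methylation enzymes 1 of 71, in the glycosylase gene Tdg. The lists were chosen with earlier results of these data known.

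Of the 3 tiles in Ghr, 2 were in peaks of a histone mark. The tile at chr15:3531001-3531200 lay in H3K27ac peaks of both genotypes and was at 77.8%, 36.4% and 33.3% in newborn, adult WT and DKO hepatocytes. The tile before it was at 0% in adult WT and 46.9% in DKO hepatocytes. Ghr was at 124, 71.4 and 107 FPKM at 3 weeks and 155, 176 and 148 FPKM at 15 weeks in WT mice, with no overlap (log2 change 0.69 ± 0.16 SE, limma, adjusted p = 0.00487). Igf2, the fetal growth factor, fell from 16.0, 17.5 and 24.2 FPKM at 3 weeks to 0.0705, 0.0877 and 0.0455 FPKM at 15 weeks (log2 change -4.22 ± 0.15 SE, limma, adjusted p = 2.43e-10). Its tile, chr7:149836001-149836200, has 1 CpG, was at 70.8%, 31.2% and 23.5%, and lay in no peak.

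Genes with shared-loss tiles were called about as often as all genes after deletion at 1 day. Of 278 tested, 10 were higher and 49 lower in DKO mice than in injected controls (limma, adjusted p under 0.05). That is 21.2%, where 20.0% of all 11092 tested genes were called, 4.26% higher and 15.7% lower, and 21.5% of genes with other lost tiles only. With quantile normalization, which removes a median shift of -0.11 on the log2 scale over all genes, the numbers were 27 higher and 49 lower, and 1316 and 1450 for all genes. The count depended on single libraries, and the share over all genes fell with it. Without the third control 23 genes were called (8.27%, and 7.88% of all genes), and without the first control 39 (14.1%, and 13.7%). Without the first DKO library 26 were called (9.35%, and 8.92%), and without the third 39 (14.0%, and 12.1%). Other genes moved with the deletion, as 14 of 34 hepatocyte maturation genes were lower and none higher. Of 22 male-biased liver genes 7 were lower and 1 higher, and of 23 female-biased ones 2 were lower and 3 higher. The summed male-biased genes were 7818 to 10803 FPKM in DKO mice and 18569 to 28586 FPKM in controls. The summed female-biased genes were 716 to 1001 and 326 to 378 FPKM. The labels give no sex of these mice, so deletion and sex cannot be told apart. The summed leukocyte and Kupffer cell markers were 2.88 to 5.73 FPKM in DKO mice and 7.69 to 14.0 FPKM in controls. The summed erythroid markers were 13.0 to 16.2 and 53.6 to 71.9 FPKM. Marker by marker, only 1 of 6 tested leukocyte and Kupffer cell markers and 1 of 7 erythroid markers were called lower, and none higher. The part of these genes and markers in the result was not tested.

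Between 3 and 15 weeks in WT mice, 87 of the 278 genes were higher and 22 lower at 15 weeks, or 39.2%. Of all tested genes 33.2% were called, 23.9% higher and 9.28% lower, and of genes with other lost tiles only 36.2%. Quantile normalization, which removes a shift of 0.15 over all genes, gave 65 higher and 47 lower, and 1920 and 2069 for all genes. The labels give no sex, and genes known to differ between male and female liver moved with age: 17 of 22 male-biased genes were higher at 15 weeks and 10 of 23 female-biased ones lower. Age and sex cannot be told apart here. Markers of other cells moved too, as 5 of 5 tested endothelial markers and 5 of 6 tested leukocyte and Kupffer cell markers were lower at 15 weeks. The sum of the endothelial markers was 8.36 to 14.3 FPKM at 3 weeks and 1.38 to 3.56 FPKM at 15 weeks, and that of leukocyte markers 7.38 to 16.6 and 2.96 to 8.51 FPKM. Their part in the result was not tested, and in such bulk samples fewer cells of a type and less RNA per cell cannot be told apart. The hepatocyte marker Alb is listed at 0 in every library, and the 8 hepatocyte markers summed to 17501 to 27593 FPKM at 3 weeks and 23750 to 25110 FPKM at 15 weeks.

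Among the 24 tested genes with a shared-loss tile in a promoter, 4 passed the test after deletion at 1 day. That is 16.7%, beside 20.0% of all tested genes, and between 3 and 15 weeks 2 passed, or 8.33%, beside 33.2%. Cryz, a quinone reductase gene, was at 8.62, 9.78 and 9.44 FPKM in DKO mice and 15.4, 13.7 and 22.5 FPKM in controls (log2 change -0.80 ± 0.18 SE, limma, adjusted p = 0.00956). The stress response gene Nupr1 was at 0.727, 1.67 and 1.84 FPKM in DKO mice and 0.302, 0.347 and 0.560 FPKM in controls (log2 change 0.75 ± 0.17 SE, limma, adjusted p = 0.00917). Both sets of libraries were apart. The prefoldin subunit gene Pfdn2 (log2 change -0.63, limma, adjusted p = 0.0312) and the mitochondrial peroxiredoxin gene Prdx3 (-0.53, limma, adjusted p = 0.0361) were lower. Each of their 4 tiles held 1 CpG, and none of them lay in a peak of a histone mark. Promoters were counted from any annotated transcript start of a gene. The Pfdn2 tile was 4.63 kb from the nearest start of a coding gene, that of Klhdc9. The Cryz tile was also assigned to Tyw3. At Cryz, the tile was at 65.7% in newborn, 28.6% in adult WT and 37.9% in DKO hepatocytes, while the tile after it was at 97.1%, 94.7% and 89.4%. From 3 to 15 weeks, Nupr1 fell by 0.67 (limma, adjusted p = 0.00865) and Prdx3 rose by 0.48 (limma, adjusted p = 0.0360) on the log2 scale.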

How the data were processed

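WGBS, RRBS, RNA-Seq, ChIP-Seq, ATAC-Seq and 5hMeDIP-Seq of mouse hepatocytes or liver were used. The authors deposited WGBS as the fraction of CpG readings that were methylated, in tiles of 200 bp (minimum coverage 15) and RRBS as the same fraction per 100 bp tile (minimum coverage 10), from Trim Galore (0.3.3) and BSMAP (2.74) on mm9. Neither table gives coverage, so no interval was calculated for these fractions. Limits were applied to the 6 decimals as deposited. The authors deposited FPKM per gene from TopHat2 and, for peaks, HOMER findPeaks score and normalized tag signal per library, after cutadapt (1.15) and Bowtie2 (2.2.4) per the labels. Of 85 sample columns of RRBS and expression, 49 were not used, since their names fit no single condition. RRBS columns with only an animal number were assigned through the expression table, a link that rests on the numbers alone. Nothing says how far mice of a group are independent beyond being separate samples, so p-values measure the spread between samples.

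Tiles were placed by GENCODE vM1 (NCBIM37, which is mm9), and a peak counted from 1 bp of overlap. An island-like tile had, within its 200 bp, at least 50% GC and an observed to expected CpG ratio of at least 0.6. RRBS means per mouse were compared by exact permutation, two-sided, with Benjamini-Hochberg adjustment over 6 tests. FPKM of 18 libraries was fitted in 1 model with limma (3.58.1, R 4.3.3) on log2(FPKM + 1), eBayes with trend, for genes that reached a mean of 1 FPKM in any condition. Of gene names listed more than once, the row with the highest mean was kept. Exact copies of the central 32 bases were counted in the reference chromosomes. Tests were tried on simulated data. Named tiles were the 4 runs with most tiles and largest fall, RRBS tiles with values in 10 mice and at least 3 CpG, and tiles at the limits. Named genes were the 10 with most shared-loss tiles, the 10 with the highest share, called genes with a promoter tile and listed genes with a tile. Genes at named tiles, and the tile with 24 CpG, were added after their values were seen. A named tile pair and a named gene are not reported here. The members and lists were chosen with earlier results of these data known.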

Additional observations from a re-analysis of the deposited data

How the results depend on the processing

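The number of shared-loss tiles depended on both limits. It was 3367 (2.56% of lost tiles), 1799 (1.37%) and 9455 (7.20%) with limits on DKO minus adult WT of 5, 0 and 15 points, and 46954 (15.4%) and 196 (0.360%) with losses of at least 25 and 50 points.

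RRBS differences kept their sign except as follows. DKO injected at 3 weeks minus controls was -6.55 points with the median over tiles. With RRBS tiles valued in every mouse, of which there were 4, 3 week WT minus controls was -0.108 and InsR KO minus controls -3.31 points. At tiles of 2 or more copies, chosen after seeing the data, the differences were -8.53 points for DKO injected at 1 day, -18.8 for DKO injected at 3 weeks, -10.8 for 3 week WT, -3.68 for InsR KO and -8.90 for cultures. Leaving out each mouse gave 6.70 to 11.7 points for DKO injected at 1 day, 43.8 to 48.6 for its difference from other lost tiles, -2.86 (without the first DKO mouse) to 5.43 for DKO injected at 3 weeks, 1.88 to 4.13 for 3 week WT, 12.3 to 23.9 for InsR KO and 7.54 to 17.1 for cultures. A fit to pairs of adjacent tiles alone was not run, since 4 such tiles hold an RRBS tile.

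When only the better-scoring 50% of each library's peaks were kept, the shares of shared-loss tiles were 7.70% for 5hmC (also 7.70% of other lost tiles, so that the difference between them was lost), 1.94% and 2.12% for H3K4me1 in WT and DKO, and 1.19% and 1.46% for H3K27ac. An overlap of 100 bp gave 11.8% for 5hmC. With 2 or more CpG, the shares were 17.1%, 6.87%, 6.55%, 5.11% and 5.43%. Leaving out a library moved the ATAC-Seq difference from -0.238 to 0.0680 points and the HNF6 difference from -0.688 to -0.0595. With the replicate block, these differences were -0.0849 (exact permutation, p = 1) and -0.374 points (exact permutation, p = 0.5, the smallest possible), and with crossed numbers also -0.374. Same-numbered libraries share only a number, as their deviations correlated by -0.0466 and -0.157 over lost tiles. No paired analysis was possible for RRBS and RNA-Seq, because their columns carry animal numbers and no replicate numbers.

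Of 5 tested genes with at least 3 shared-loss tiles, 1 and 2 were called for deletion and age. Without the filter on FPKM, 180 of 828 genes were called for age, or 21.7%, and 22.7% of all genes. Leaving out a library gave 23 to 54 genes for the deletion and 81 to 112 for age. The depth of the fractions is unknown.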
